A study of Mus musculus with 12 samples.

Results

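*Cytip* and the 4 cytohesin genes, *Cyth1*, *Cyth2*, *Cyth3* and *Cyth4*, were followed in bone marrow-derived macrophages (BMDMs) that were stimulated through the β2-adrenergic receptor (B2AR). *Cytip* was selected on its measured counts, because its rise in these libraries lasted from 1 h to 4 h, and the cytohesins were listed as the partners of its protein. Earlier results of these data were known when the cytohesins and the gene lists below were chosen, which limits what their p-values and shares can show. All 5 genes were found among the 53379 genes of the count table by their Ensembl identifiers, and all 5 were among the 12386 genes that were tested. The BMDMs came from the bone marrow of 4 adult male C57BL/6J mice, a wild-type strain, and were differentiated in medium conditioned by L929 cells. Each mouse gave untreated cells and cells kept in 1 μM fenoterol, a B2AR agonist, for 1 h or 4 h, that is 12 mRNA libraries with 4 in each group. Thus, all 3 groups shared the genotype and the culture, and the treatment and its time were the only labelled differences.

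CYTIP is a scaffold protein of blood cells with a PDZ domain and a coiled coil, and it binds cytohesin-1. The cytohesins are exchange factors that load ARF GTPases, above all ARF1 and ARF6, with GTP. Their pleckstrin homology domain brings them to membranes rich in PIP3, and cytohesin-1 was described as a binding partner of the β2 integrin chain, through which leukocytes adhere. CYTIP takes cytohesin-1 away from the membrane and is known in dendritic cells and lymphocytes for its part in the release of adhesion.

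The libraries held 14580533 to 24153284 counts each, and the group medians were 18975206.5 without fenoterol, 19843792 after 1 h and 19543222.5 after 4 h. All 8 macrophage markers were among the tested genes, and their summed normalized counts ran from 749558 to 785988 without fenoterol, from 725213 to 852873 after 1 h and from 702036 to 789485 after 4 h. *Lyz2* made up most of these sums, with 391855 to 514637 in single libraries. Against untreated BMDMs in edgeR, *Cd14* was higher and *Mertk* lower at 1 h. At 4 h *Cd14*, *Fcgr1* and *Itgam* were higher and *Mertk*, *Csf1r*, *Cd68* and *Adgre1* lower, with log2 changes of 2.52, 0.72, 0.42, -1.51, -0.26, -0.22 and -0.21, and the part of these shifts in the results was not tested. Of the markers of other blood cells, 0 of the 5 for T cells and 0 of the 4 for mast cells and basophils passed the filter on low counts. The summed T cell markers reached at most 15.6 normalized counts in a library, and *Mcpt4* had no count in any library. Summed B cell markers (1 of 4 tested) were 126 to 229, those of neutrophils (4 of 5 tested) 487 to 973, those of dendritic cells (1 of 5 tested) 5.55 to 25.8 and those of stromal cells (2 of 4 tested) 378 to 1191 normalized counts, and for each of these lists the ranges of the 3 groups overlapped. The expression values are sums over all cells of a culture, so more RNA per cell and more cells that express a gene cannot be told apart.

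The 5 genes are spread over 5 chromosomes of GRCm38. *Cytip* (ENSMUSG00000026832) lies on chr2:58129137-58195532, minus strand, and *Cyth1* (ENSMUSG00000017132) on chr11:118132019-118248592, minus strand. *Cyth2* (ENSMUSG00000003269) lies on chr7:45806637-45814581, minus strand, *Cyth3* (ENSMUSG00000018001) on chr5:143622447-143710250, plus strand, and *Cyth4* (ENSMUSG00000018008) on chr15:78597047-78622019, plus strand. The counts are of whole genes, exons of coding and untranslated parts together.

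The cytohesins resemble each other in sequence, and the reads were 50 bases long, so it was checked whether a read could belong to several of them. The stretch of 50 coding bases in which *Cyth1* is most like the 3 other cytohesins together is shown because it lets all 4 be compared in 1 alignment. It lies in the part that encodes the pleckstrin homology domain. It was taken from the GENCODE M21 transcript with the longest coding sequence of each gene, and capitals mark the bases that differ from *Cyth1*.
Cyth1: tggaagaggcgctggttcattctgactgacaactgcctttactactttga
Cyth2: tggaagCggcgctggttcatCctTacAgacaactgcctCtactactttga
Cyth3: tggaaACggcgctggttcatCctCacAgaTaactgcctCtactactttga
Cyth4: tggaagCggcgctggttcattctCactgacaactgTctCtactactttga

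The stretch begins at coding base 838 of *Cyth1*. Even here *Cyth2* differs from *Cyth1* at 5 of the 50 bases, *Cyth3* at 7 and *Cyth4* at 4. Taken pair by pair, the stretches of *Cyth1* most like *Cyth2* and *Cyth3* lie elsewhere, at coding bases 877 and 760, with 3 and 4 mismatches. For *Cyth4* the fewest mismatches are 4, which the stretch shown has, as does that at coding base 443. The closest match of 50 coding bases between any pair of cytohesins had 3 mismatches, and between *Cytip* and a cytohesin it had 22. Over all annotated transcripts, 0 stretches of 50 bases of *Cyth1*, *Cyth3* or *Cyth4* occur in another gene. *Cytip* shares 16 of 6766 such stretches with other genes. *Cyth2* shares 283 of 3679 with *Gm45444*, a gene on the opposite strand that covers 11.06% of its exon bases, and whether the counting used the strand is not given in the sources used here. *Gm45444* held 1 count over the 12 libraries, against 12956 for *Cyth2*.

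*Cytip* was low in untreated BMDMs and rose at both times. Its normalized count, which is scaled by the TMM method to the mean library size of 19610344, was 398, 407, 425 and 394 in the untreated cells of mice 1 to 4. After 1 h of fenoterol it was 8289, 9061, 6755 and 7767, and after 4 h it was 8687, 11558, 9401 and 9797. Each treated library lay above each untreated one, while the ranges at 1 h and 4 h overlapped. The group means were 406 ± 13.9, 7968 ± 968 and 9861 ± 1221 (SD, n = 4). The fitted log2 fold change was 4.29 (SE 0.11) at 1 h and 4.60 (SE 0.11) at 4 h, or 19.6-fold and 24.3-fold, and 0.31 (SE 0.09) between the time points. Since *Cytip* was selected on these counts, its changes are given as a description with no test.

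**Figure D1:**
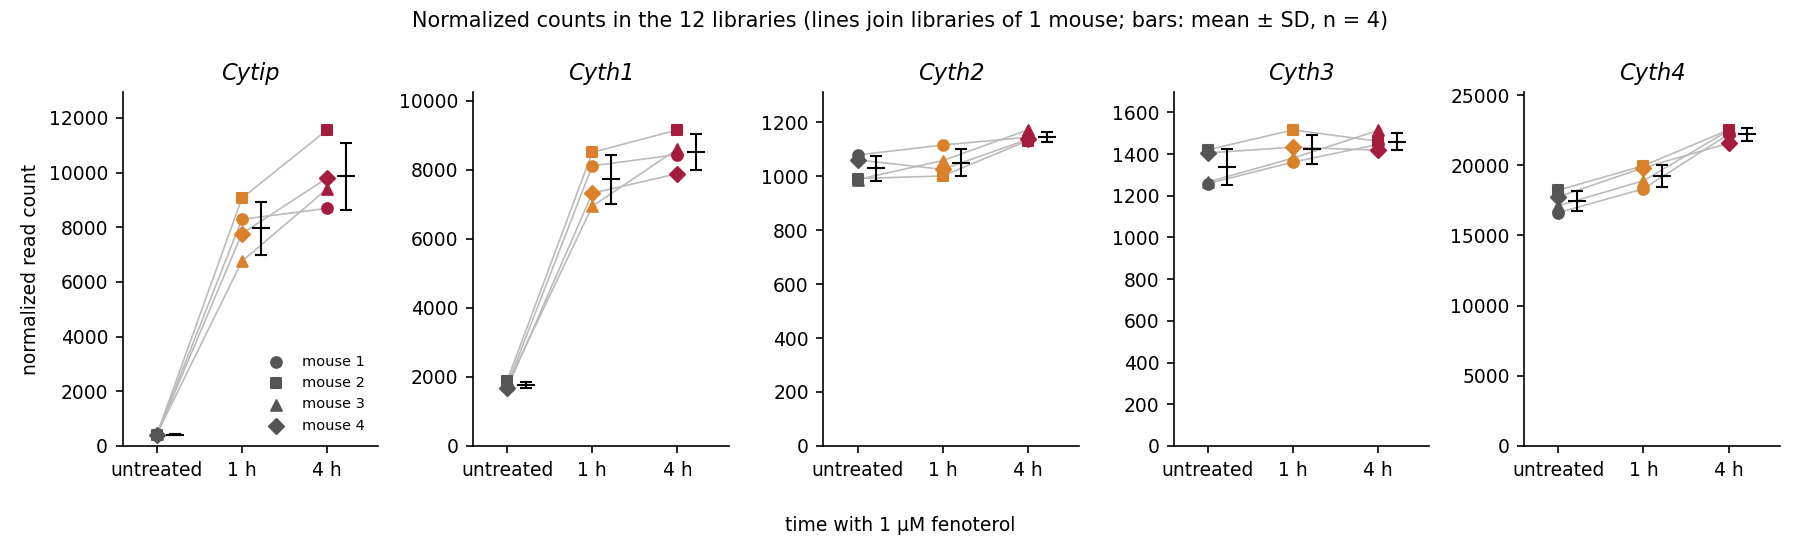
Normalized read counts (y axis, from 0, a scale of its own for each gene) of the 5 genes in untreated BMDMs and after 1 h and 4 h of fenoterol (x axis). Each symbol is 1 library, grey lines join the libraries of 1 mouse, and black bars give the mean ± SD of 4 libraries. *Cytip* and *Cyth1* rose in all 4 mice, to means of 7968 and 7725 at 1 h, while the other cytohesins differ by at most 1.27-fold between the group means.

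Of the cytohesins, *Cyth1*, which encodes the partner from which CYTIP has its name, rose as well. Its normalized counts in mice 1 to 4 were 1746, 1889, 1757 and 1667 in untreated cells, 8118, 8510, 6948 and 7325 at 1 h, and 8446, 9159, 8607 and 7892 at 4 h. Every treated library lay far above the untreated ones. The means were 1765 ± 92.3, 7725 ± 715 and 8526 ± 521 (SD, n = 4). At 1 h, *Cyth1* was 4.38-fold higher than in untreated BMDMs (log2 fold change 2.13, SE 0.07, adjusted p = 2.45e-11 in edgeR's quasi-likelihood test with Benjamini-Hochberg adjustment over 12386 genes). At 4 h it was 4.83-fold higher (log2 fold change 2.27, SE 0.07, adjusted p = 2.46e-11 in edgeR). By p-value it stood at place 30 of 12386 genes at 1 h and at place 13 at 4 h. Between 1 h and 4 h the difference was 0.14 on the log2 scale (SE 0.07, 95% confidence interval -0.01 to 0.29, adjusted p = 0.120 in edgeR), and with the mouse as a block it passed the threshold (0.14, adjusted p = 0.0194 in edgeR). With each of the 12 libraries left out in turn, the difference was 0.08 to 0.19 (adjusted p from 0.0482 to 0.425 in edgeR). It passed only without the 1 h library of mouse 2 (0.19, adjusted p = 0.0482 in edgeR).

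*Cyth4*, the cytohesin of blood cells, rose by a much smaller ratio. It had 16615, 18226, 17108 and 17748 normalized counts in untreated BMDMs of mice 1 to 4, 18318, 19961, 18893 and 19819 at 1 h, and 22210, 22513, 22468 and 21565 at 4 h. At 4 h each library lay above all those at 1 h, and at 1 h each lay above all untreated ones. The means were 17424 ± 708, 19248 ± 780 and 22189 ± 437 (SD, n = 4). The rise at 4 h was 1.27-fold (log2 fold change 0.35, SE 0.05, adjusted p = 3.93e-05 in edgeR), and *Cyth4* was also higher at 4 h than at 1 h (0.21, SE 0.05, adjusted p = 0.00368 in edgeR). At 1 h it was 1.10-fold higher (log2 fold change 0.14, SE 0.05, adjusted p = 0.0494 in edgeR). This last call sat at the threshold. With each of the 12 libraries left out in turn, it passed only without the untreated library of mouse 2 or the 1 h library of mouse 1, and it was lost in the 10 other cases (adjusted p from 0.0368 to 0.137 in edgeR, log2 fold change from 0.12 to 0.17).

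*Cyth2* and *Cyth3*, which are expressed in many tissues, stayed close to their untreated levels. *Cyth2* had means of 1030 ± 46.8, 1050 ± 49.7 and 1146 ± 17.7 normalized counts in the 3 groups in order of time (SD, n = 4), and its libraries lay within 988 to 1079, 1001 to 1116 and 1132 to 1172. The ranges overlapped at 1 h, whereas all 4 libraries at 4 h lay above the rest. The difference was 0.03 on the log2 scale at 1 h (95% confidence interval -0.08 to 0.14, adjusted p = 0.775 in edgeR), with a sign that turned under scaling by library size only. At 4 h *Cyth2* rose by 0.15 (SE 0.05, adjusted p = 0.0237 in edgeR), a call that was lost without the untreated library of mouse 2 (adjusted p = 0.0659), that of mouse 3 (0.0871) or the 4 h library of mouse 3 (0.0586 in edgeR). Between 1 h and 4 h the difference was 0.13 (adjusted p = 0.0603 in edgeR, and 0.0306 without the 1 h library of mouse 1).

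*Cyth3* had means of 1337 ± 87.5, 1423 ± 68.9 and 1460 ± 40.0 normalized counts (SD, n = 4), and its libraries lay within 1258 to 1420, 1361 to 1515 and 1418 to 1513. The 3 ranges overlapped. It differed by 0.09 on the log2 scale at 1 h (95% confidence interval -0.03 to 0.21, adjusted p = 0.311 in edgeR) and by 0.13 at 4 h (95% confidence interval 0.01 to 0.25, adjusted p = 0.0855 in edgeR). The interval at 4 h thus left room for a rise of 0.25 at most, against 2.27 measured for *Cyth1*. Between the time points, *Cyth3* differed by 0.04 (adjusted p = 0.643 in edgeR).

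These counts have a wide background, because fenoterol moved much of the transcriptome. At 1 h 20.1% of the tested genes passed the threshold (10.0% higher and 10.1% lower), at 4 h 40.0% (19.7% higher and 20.4% lower), and between 4 h and 1 h 38.5% (18.7% higher and 19.8% lower). With scaling by library size only, 32.5% of the genes called at 1 h were higher, in place of 49.8%, and 65.7% of those called between 4 h and 1 h, in place of 48.6%. Of the 4 cytohesins, 2 were higher at 1 h, 3 at 4 h and 1 between 4 h and 1 h. The 1 h and 4 h comparisons share the untreated libraries and are not independent of each other.

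**Figure D2:**
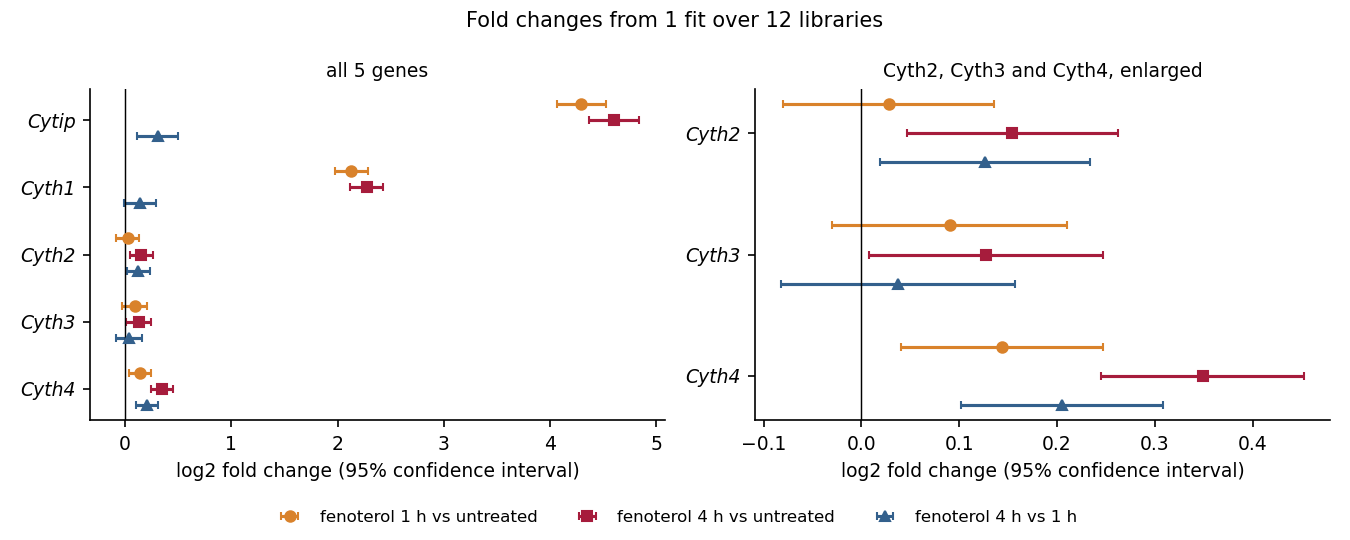
Log2 fold changes (x axis) with 95% confidence intervals for the 5 genes (y axis), 1 h against untreated (circles), 4 h against untreated (squares) and 4 h against 1 h (triangles), from 1 edgeR fit over 12 libraries. The right panel enlarges *Cyth2*, *Cyth3* and *Cyth4*. The intervals of *Cyth1* against untreated lie above those of the other cytohesins, which stay below 0.5.

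Per length of exon, the mix of cytohesin mRNAs changed. Levels between genes were compared as CPM, the read count scaled by TMM to a common library total, per kilobase of annotated exon. In untreated BMDMs the order was *Cyth4* (118), *Cyth1* (23.0), *Cyth2* (15.2), *Cyth3* (7.23) and *Cytip* (3.07), and no ranges of neighbours in this order overlapped. At 1 h *Cytip* (60.3) stood between *Cyth1* (101) and *Cyth2* (15.5). At 4 h the order was *Cyth4* (150), *Cyth1* (111), *Cytip* (74.6), *Cyth2* (17.0) and *Cyth3* (7.89), and again neighbours did not overlap. Ranked by this level among 12375 genes, *Cytip* was at place 7629 before treatment, and at 716 and 488 after 1 h and 4 h. *Cyth1* moved from 1985 to 392 and 312, while *Cyth4* was at 308, 290 and 228.

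*Cyth4* made up 72.1% ± 0.679 of the summed cytohesin level before treatment, but 51.2% ± 2.08 after 1 h and 52.4% ± 0.83 after 4 h (SD, n = 4). *Cyth1* made up 14.1% ± 0.622, 39.7% ± 2.22 and 38.9% ± 1.09. The shares of *Cyth2* (9.35%, 6.13% and 5.94%) and *Cyth3* (4.43%, 3.03% and 2.76%) were smaller in treated cells, although their own levels were not lower. The 4 cytohesins summed to 163 ± 5.50 CPM per kilobase before treatment, to 254 ± 11.3 after 1 h and to 286 ± 9.74 after 4 h. With the longest annotated transcript as the length, *Cyth1* made up 8.12% before treatment and 25.4% after 4 h, since the annotated exons of *Cyth4* sum to 7552 bases and its longest transcript has 3110. The longest transcripts of *Cyth3* and *Cyth4* have 1 and 6 exons, against 13 for *Cyth1* and 12 for *Cyth2*. Which transcripts BMDMs express was not measured, so shares and ratios between genes depend on the length taken.

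The level of *Cytip*, which was selected for its rise, rose by a larger factor than that of its partner, and the ratios are given as a description. The ratio of *Cytip* to *Cyth1* per length was 0.133 ± 0.007 before treatment, 0.596 ± 0.025 after 1 h and 0.669 ± 0.066 after 4 h (SD, n = 4). The single libraries lay between 0.125 and 0.140, between 0.563 and 0.617, and between 0.596 and 0.731. Against the sum of all 4 cytohesins, the ratio was 0.0188, 0.237 and 0.261, and with the longest transcript as the length it was 0.00974, 0.140 and 0.153. Hence in every treated library *Cytip* mRNA stayed below *Cyth1* mRNA per length. These are ratios of mRNA, and no protein was measured here.

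**Figure D3:**
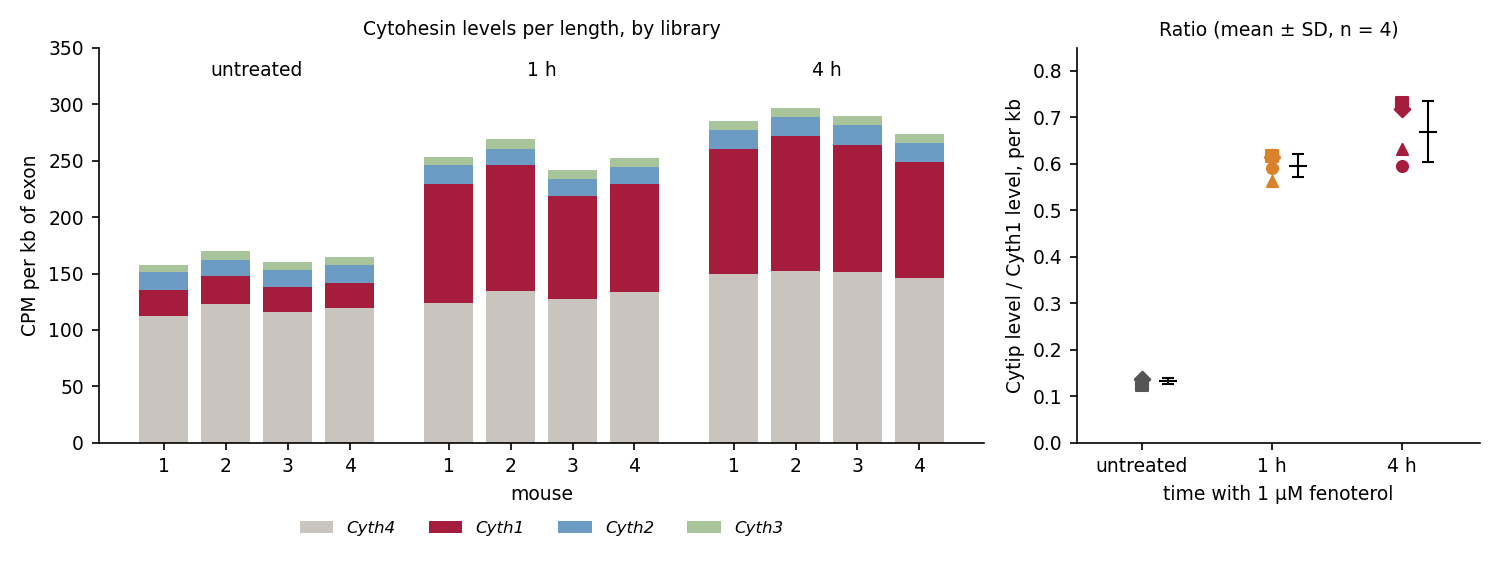
Left, levels of the 4 cytohesins (y axis, CPM per kilobase of exon, stacked) in each library (x axis, mouse 1 to 4 within each group). Right, the ratio of the *Cytip* level to the *Cyth1* level (y axis) by group, with 1 symbol per library and the mean ± SD. The *Cyth1* segment takes 14.1% of the bar in untreated BMDMs and 39.7% at 1 h, and the ratio goes from 0.133 to 0.596.

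The time course of *Cyth1* was close to that of *Cytip*. Over the 12 libraries, log2 CPM of *Cyth1* and *Cytip* had a Pearson correlation of 0.998, place 2 of the 10289 genes whose mean normalized count reached 50. The libraries fall into untreated and treated ones, and this value rests on that split. In the 8 treated libraries alone it was 0.872, and the deviations from the group means, which leave out the treatment, had 0.737. *Cyth4* was at place 546 (r = 0.809), *Cyth3* at 1372 (0.647) and *Cyth2* at 1907 (0.546). By Spearman correlation, *Cyth1* was at place 71 (0.923) and *Cyth4*, at place 111 (0.909), was close to it, followed by *Cyth3* at 1221 (0.657) and *Cyth2* at 1705 (0.566). The 12 values of each gene come from the same libraries, and 4 mice gave all of them.

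The 10 genes most like *Cytip* by Pearson correlation were, in order, *Pde4d*, *Cyth1*, *Thbs1*, *Dgat1*, *Lrrc8d*, *Cd14*, *Rab11fip1*, *Tspan13*, *Ist1* and *Ahr*, with values from 0.992 to 0.998. *Cd14* is also 1 of the 8 macrophage markers, of which 3 were higher and 4 lower at 4 h. *Pde4d* encodes a phosphodiesterase that degrades cAMP, and it was 8.95-fold higher at 1 h and 11.8-fold higher at 4 h. *Thbs1*, which encodes the secreted adhesion protein thrombospondin-1, was 76.6-fold and 125-fold higher, and *Dgat1*, which encodes an enzyme of triglyceride synthesis, 9.21-fold and 10.8-fold. *Ist1*, an ESCRT-III component, had the smallest folds of the 10, with 2.07 and 2.23. None of these 10 genes was among the 10 most alike by Spearman correlation.

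**Figure D4:**
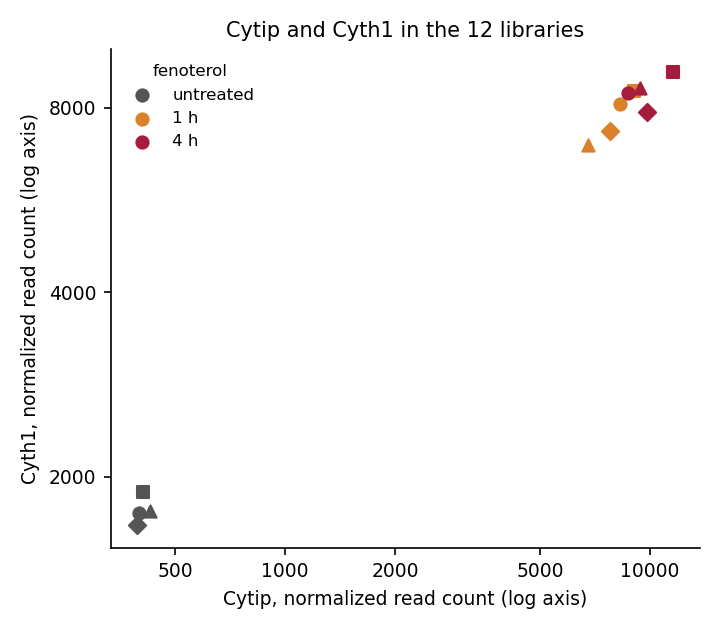
Normalized read counts of *Cyth1* (y axis, log scale) against *Cytip* (x axis, log scale) in the 12 libraries. Colours give the group and symbol shapes the mouse, as in the plot of counts by library. The 4 untreated libraries sit apart at the lower left, and the 8 treated ones lie between 6755 and 11558 for *Cytip* and between 6948 and 9159 for *Cyth1*.

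Promoter windows of the 5 genes were searched for motifs, and 1 *Cyth1* window is printed because it alone held a motif searched for. B2AR signals through cAMP, and the cAMP response element is the palindrome TGACGTCA, and its short form is TGACG or CGTCA. RefSeq windows on GRCm38.p6 from 250 bases before to 50 bases after a gene start were searched on both strands, 7 windows for the 5 genes, of which *Cyth1* has 3. Of these 7 windows, 0 held the whole element, which 1.79% of 32851 windows do, and 0 held the short form, which 20.8% of all windows do. A whole element also counts as a short form. The AP-1 site TGAGTCA or TGACTCA was in 1 of the 7, a *Cyth1* window (5.20% of all windows), 231 bases before the start. The part of that window outside annotated exons is chr11:118212743-118212981, minus strand, with the AP-1 letters in capitals.
Cyth1: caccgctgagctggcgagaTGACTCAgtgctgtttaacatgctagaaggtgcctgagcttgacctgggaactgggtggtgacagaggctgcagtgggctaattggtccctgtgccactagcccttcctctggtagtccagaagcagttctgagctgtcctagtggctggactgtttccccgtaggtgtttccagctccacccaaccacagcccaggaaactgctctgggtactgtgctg

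These are matches of letters in short windows, and which of the 3 starts BMDMs use was not measured. The single *Cytip* window lies wholly within annotated exons, as the gene has further starts upstream.

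The proteins that act with CYTIP and the cytohesins were read from 7 lists with 85 genes, of which 80 were tested (*Iqsec3*, *Psd*, *Cnksr1*, *Inava* and *Pip5k1b* were too low). Of the 80, 8 were higher and 12 lower at 1 h (25.0% called, against 20.1% of all genes), 18 higher and 32 lower at 4 h (62.5%, against 40.0%), and 19 higher and 33 lower at 4 h against 1 h (65.0%, against 38.5%). With scaling by library size only, the split was 7 higher and 22 lower at 1 h and 25 higher and 25 lower at 4 h against 1 h. With the mouse as a block, 14 were higher and 15 lower at 1 h, when 3348 of all genes were called in place of 2493. The median log2 fold change over the 80 genes was -0.0177 at 1 h and -0.000775 at 4 h, beside -0.00486 and 0.00420 for all tested genes.

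The binding partners included *Grasp*, also called tamalin, the paralog of *Cytip*. It had 1, 2, 7 and 3 counts in untreated BMDMs, 70, 68, 63 and 68 at 1 h, and 5, 4, 7 and 12 at 4 h. *Grasp* was thus higher at 1 h (log2 fold change 4.33, SE 0.36, adjusted p = 4.43e-07 in edgeR), against untreated counts so low that the size of the rise is uncertain, and did not pass the threshold at 4 h (0.92, SE 0.46, adjusted p = 0.137 in edgeR). It fell by 3.41 (SE 0.32) on the log2 scale from 1 h to 4 h (adjusted p = 1.11e-06 in edgeR), while the *Cytip* mean was 9861 normalized counts at 4 h. *Snx27*, a sorting nexin whose PDZ domain was reported to bind CYTIP, had 2810 to 3033 normalized counts before treatment, 2566 to 2938 after 1 h and 1610 to 1845 after 4 h, and fell by 0.73 at 4 h (adjusted p = 1.45e-07 in edgeR). *Frmd4b*, which encodes a cytohesin-3 binding scaffold, fell by 1.06 at 4 h (adjusted p = 3.32e-09 in edgeR), from a mean of 6330 to 3032 normalized counts. Of the 6 tested genes of this list, 1 was higher and 0 lower at 1 h (16.7% called, against 20.1% of all genes), 0 higher and 2 lower at 4 h (33.3%, against 40.0%), and 1 higher and 4 lower at 4 h against 1 h (83.3%, against 38.5%). The last count fell to 0 higher and 3 lower without the 1 h library of mouse 2 or the 4 h library of mouse 1, where the calls for *Ccdc120* (0.44) and *Frmd4a* (-0.40) were lost. At 1 h 2 genes were higher with the mouse as a block, the added one being *Frmd4a* (0.24, adjusted p = 0.0332 in edgeR), and 2 were called without the 1 h library of mouse 3 or 4. The block raised the calls over all 12386 genes from 2493 to 3348 at 1 h.

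Of the 9 ARF and ARL4 GTPases, the substrates and recruiters of cytohesins, 3 were higher and 1 lower at 1 h (44.4% called, against 20.1% of all genes), and 3 higher and 2 lower at 4 h (55.6%, against 40.0%). With the mouse as a block, *Arf4* was also higher at 1 h (0.15, adjusted p = 0.0457 in edgeR), which made 4 higher. The same fit called 3348 of all 12386 genes at 1 h in place of 2493. *Arl4c*, whose product brings cytohesins to the plasma membrane, had 4466 to 5348 normalized counts before treatment, 12221 to 13701 after 1 h and 7936 to 8956 after 4 h. Its rise was 1.40 on the log2 scale (SE 0.07) at 1 h and 0.81 (SE 0.07) at 4 h, with adjusted p = 1.02e-09 and 2.1e-07 in edgeR. *Arf2* fell by 0.48 at 1 h (SE 0.10, adjusted p = 0.00283 in edgeR), from 1319 to 1732 normalized counts before treatment to 972 to 1220, and differed by 0.02 at 4 h. *Arl4a* rose by 0.43 and 0.32. The second call was lost under 5 of 20 alternatives, which were no filter and leaving out the untreated library of mouse 2 or 4 or the 4 h library of mouse 3 or 4 (adjusted p up to 0.0684 in edgeR). *Arf6* was 1845 to 1900 in untreated BMDMs and 1468 to 1687 at 4 h and fell by 0.22 (adjusted p = 0.00798 in edgeR), and *Arf4* fell by 0.56 (adjusted p = 5.01e-07). *Arf1* rose by 0.16 at 1 h and 0.21 at 4 h, and the call at 1 h was lost under scaling by library size only (0.09, adjusted p = 0.183 in edgeR), without the filter, and without the untreated library of mouse 1 or the 1 h library of mouse 4.

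Among the other ARF exchange factors, 0 of 9 tested genes were called at 1 h in edgeR (0%, against 20.1% of all genes). The fit with the mouse as a block called 1, *Iqsec2* (-0.16, adjusted p = 0.0301 in edgeR), and 3348 of all 12386 genes in place of 2493. At 4 h 44.4% of the exchange factors were called, against 40.0% of all genes. *Gbf1*, an exchange factor of the Golgi, rose by 0.33 at that time, whereas *Iqsec2*, *Psd3* and *Arfgef2* fell by 0.66, 0.98 and 0.33. The call for *Psd3* was lost without the untreated library of mouse 1 (adjusted p = 0.0540 in edgeR). Of the 23 ARF GTPase-activating proteins, which switch ARFs off, 0 were higher and 4 lower at 1 h (17.4% called, against 20.1% of all genes), and 6 higher and 10 lower at 4 h (69.6%, against 40.0%). Without the untreated library of mouse 4 or the 4 h library of mouse 1, 3 were higher at 4 h, as *Arfgap2*, *Agap1* and *Git1* (0.14, 0.29 and 0.18) were no longer called. With the mouse as a block, 2 were higher and 5 lower at 1 h, when 3348 of all 12386 genes were called in place of 2493. The 4 at 1 h were *Adap2*, *Agfg2*, *Arap3* and *Git2*, which fell by 0.77, 0.52, 0.18 and 0.17. The call for *Arap3* was lost under 7 of 20 alternatives, among them leaving out the untreated library of mouse 1, 2 or 3 or the 1 h library of mouse 1 or 2, and that for *Git2* without the filter. Of the 10 lower ones, 5 had the largest changes: *Adap1* fell by 1.51, *Arap2* fell by 1.45, *Smap2* fell by 1.35, *Adap2* fell by 1.13 and *Asap1* fell by 1.10 on the log2 scale. *Adap1*, whose product binds PIP3 as the cytohesins do, had 1551 to 1719 normalized counts before treatment, 1559 to 1634 after 1 h and 477 to 668 after 4 h. *Asap2* rose by 1.10 at 4 h. *Agfg2* was lower at 1 h but rose by 0.92 at 4 h, with 619 to 720 normalized counts before treatment, 405 to 517 after 1 h and 1097 to 1435 after 4 h.

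Of the 8 tested ARF6 effectors, 3 were higher and 0 lower at 1 h (37.5% called, against 20.1% of all genes), and 2 higher and 1 lower at 4 h (37.5%, against 40.0%). With the mouse as a block, 3 were higher and 1 lower at either time, the added calls being *Arfip2* at 1 h (-0.17, adjusted p = 0.0375 in edgeR) and *Pip5k1c* at 4 h (0.13, adjusted p = 0.0406 in edgeR). *Spag9*, the scaffold JIP4, rose by 0.27 at 1 h and 1.42 at 4 h (adjusted p = 1.44e-10 in edgeR), with 3711 to 4189 normalized counts in untreated BMDMs and 9925 to 11191 at 4 h. *Pip5k1a*, which encodes a kinase that makes PIP2, rose by 0.43 and 0.30. *Pld2*, a phospholipase D, fell by 0.46 at 4 h.

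**Figure D5:**
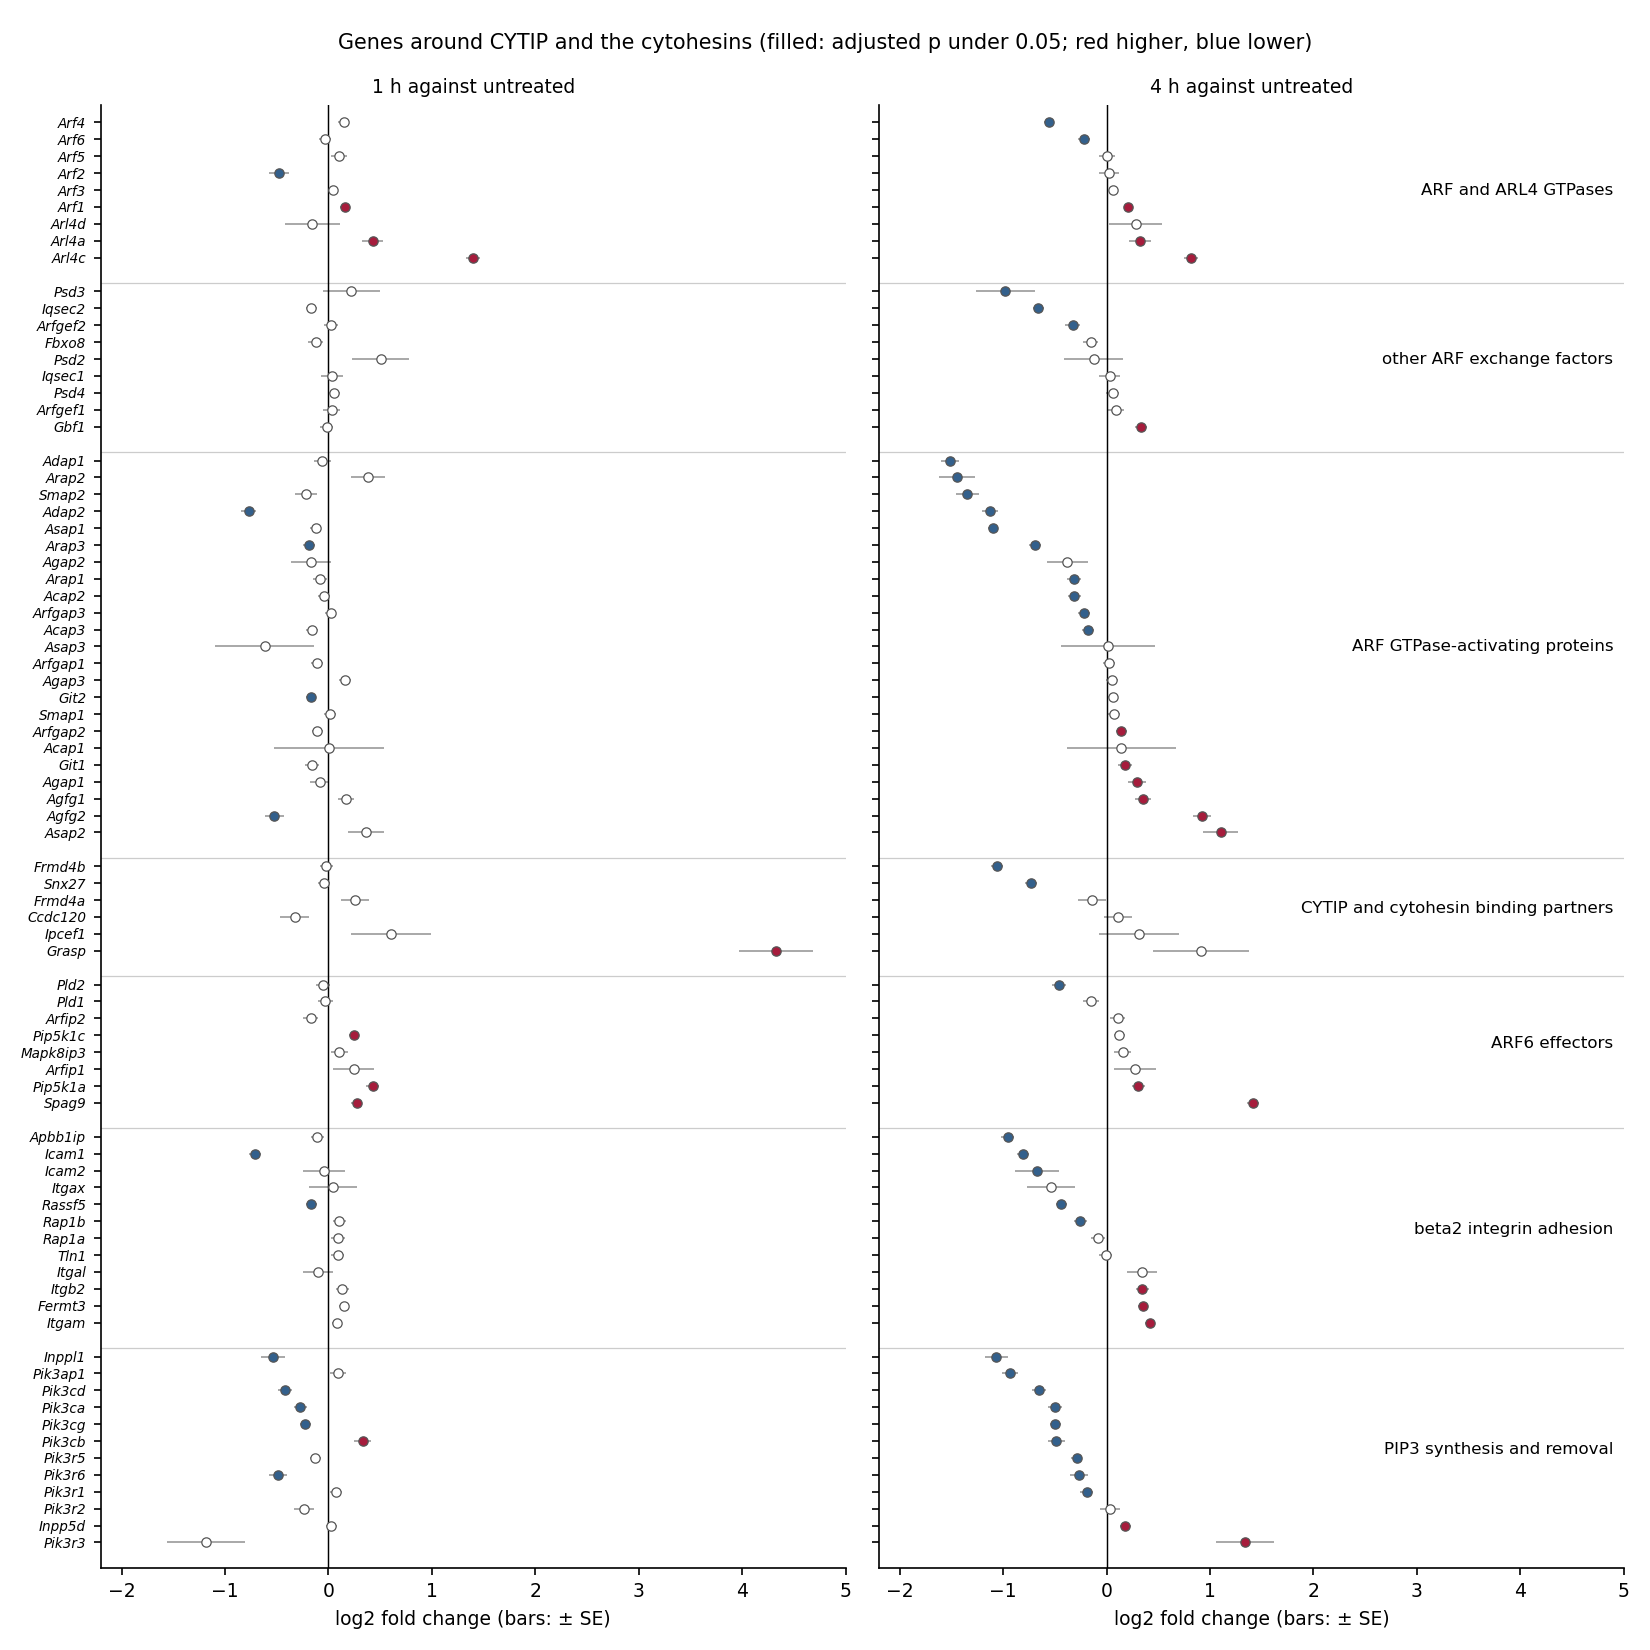
Log2 fold changes (x axis, bars ± SE) of 79 of the 80 tested genes of 7 lists around CYTIP and the cytohesins (y axis, ordered within a list by the change at 4 h), at 1 h (left) and 4 h (right) against untreated. Filled symbols passed the threshold, red higher and blue lower. 20 symbols are filled at 1 h and 49 at 4 h, and *Grasp* lies apart at 1 h with 4.33.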

How the data were processed

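Stranded mRNA libraries were sequenced in single reads of 50 bases, which the authors aligned against GRCm38 (TopHat2 2.0.11) and turned into counts per gene (HTSeq 0.8.0), per the labels and the study's methods. The deposited values are raw counts, not normalized. The annotation release and the strand setting of the counting are not given in the sources used here.

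Symbols, exon lengths and transcripts came from GENCODE M21 (53274 of 53379 genes matched). Genes were filtered with filterByExpr and scaled by TMM, and the 3 group means were fitted to all 12 libraries with edgeR 4.0.16 (R 4.3.3). No covariate was fitted, and the design of the study's own fit is not given in the sources used here. Quasi-likelihood p-values were Benjamini-Hochberg adjusted over 12386 genes, with a threshold of 0.05. On simulated data for 1 h against untreated, with 12121 genes tested, 176 of 200 changed genes were recovered, with 8 false calls. The 200 were changed by 1 or 2 on the log2 scale, up or down, and the other genes were not changed. The recovery of smaller changes, or with a larger share of genes changed, was not simulated. The members and lists were chosen with earlier results of these data known. Besides the members, up to 5 called genes of each list against untreated were named, the largest changes first, with others whose role a sentence needed. For 1 gene of the lists, results are not reported here. The 10 genes most like *Cytip* were ranked by Pearson correlation of log2 CPM (prior count 2).

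Libraries of 1 number come from the same mouse per the labels. Their deviations from the group means had r from 0.290 to 0.561 (12 pairs), against -0.304 to 0.0912 for different mice (36 pairs). Alternatives were DESeq2 1.42.0, limma-voom (limma 3.58.1), RLE and library size scaling, no filter or a minimum mean count of 50, the mouse as a block, the 2 groups alone, and each library left out. No library was a copy of another, since replicates differed by more than counting error (chi-square per degree of freedom 9.71 to 20.0).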

Additional observations from a re-analysis of the deposited data

Results flagged for a closer look

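*Cyth4* differed between the time points of fenoterol treatment. Its log2 fold change at 4 h against 1 h was 0.21 (SE 0.05, adjusted p = 0.00368 in edgeR), and it was higher at 4 h in 4 of 4 mice, with means of 19248 at 1 h and 22189 normalized counts at 4 h. No library stood apart from its group in any of the 15 sets of 4 libraries that the 5 genes and 3 groups form.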

How the results depend on the processing

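The calls for *Cyth1* at both times and for *Cyth4* at 4 h, against untreated and against 1 h, held under all 20 alternatives. The mouse as a replicate block changed 1 call of a cytohesin, that of *Cyth1* between 4 h and 1 h (0.144, adjusted p = 0.0194), and no other. Scaling by library size only gave *Cyth2* -0.0408 at 1 h, *Cyth4* 0.0748 at 1 h (adjusted p = 0.308), *Cyth3* 0.151 at 4 h (0.0442), and between 4 h and 1 h *Cyth1* 0.235 (0.00756) and *Cyth2* 0.219 (0.00322). Without the filter, *Cyth4* at 1 h was 0.148 (adjusted p = 0.174) and *Cyth2* at 4 h 0.163 (0.0782), with 23560 genes tested. With only the 2 groups compared in the fit, *Cyth4* at 1 h was 0.151 (0.0673). With 1 library left out in turn, *Cyth4* at 1 h was 0.121 to 0.167, and *Cyth2* was -0.00211 to 0.0515 at 1 h (below 0 without the 1 h library of mouse 1), 0.124 to 0.178 at 4 h and 0.104 to 0.157 between the time points. Left out likewise, *Cyth1* between 4 h and 1 h was 0.0777 to 0.191. The cause of these differences was not tested. Counted in both directions, the called genes of the whole table and of the 7 lists pooled did not move by over 1.5 times under any alternative, whereas those of single lists did. At 1 h, the ARF GTPase-activating proteins went from 4 to 7 with the block, 9 with library size only and 2 without the filter, the binding partners from 1 to 2 with the block and 0 where genes under a mean of 50 normalized counts were left out, the other exchange factors from 0 to 1 under 4 alternatives, and the integrin list from 2 to 4 with the block and to 1 under 10 alternatives. Between 4 h and 1 h, the ARF6 effectors went from 3 to 5 without the untreated library of mouse 4. By direction, scaling by library size only gave 1969 lower genes at 1 h in place of 1251, 3503 higher genes between 4 h and 1 h in place of 2320, and 22 lower genes of the 7 lists at 1 h in place of 12. The block gave 14 higher genes of the lists at 1 h in place of 8, and 1646 higher genes of the whole table in place of 1242. With the longest transcript as the length, *Cyth4* was 286, 316 and 364 CPM per kilobase. The log2 fold change of *Cytip* was 4.22 to 4.37 at 1 h and 4.52 to 4.66 at 4 h over all alternatives. The SE of a cytohesin's log2 fold change was 0.05 to 0.07, and a difference had to exceed it several times to be called. In the main fit the smallest one called was 0.144 (*Cyth4* at 1 h, SE 0.05), while 0.142 (*Cyth1*, 4 h against 1 h, SE 0.07) was not called.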

Other observations

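CYTIP and cytohesin-1 meet at the β2 integrins, and 12 genes of that adhesion machinery were read. Of these, 0 were higher and 2 lower at 1 h (16.7% called, against 20.1% of all genes), and 3 higher and 5 lower at 4 h (66.7%, against 40.0%). With the mouse as a block, 2 were higher and 2 lower at 1 h, and 4 higher and 6 lower at 4 h. *Itgb2*, which encodes the β2 chain, had 17998 to 20715 normalized counts in untreated BMDMs and 22979 to 26497 at 4 h, and rose by 0.35 on the log2 scale (SE 0.06, adjusted p = 0.000531 in edgeR). *Itgam*, its partner in Mac-1, and *Fermt3*, the activator kindlin-3, rose by 0.42 and 0.35 at 4 h. *Itgal*, its partner in LFA-1, did not pass the threshold at 4 h (0.34, adjusted p = 0.0779 in edgeR) but did with the mouse as a block (0.36, adjusted p = 0.00143). *Itgax*, its partner in CD11c/CD18, went the other way, with 1028, 513, 654 and 700 normalized counts in untreated BMDMs of mice 1 to 4 and 680, 347, 483 and 494 at 4 h. It was lower in 4 of 4 mice, while the groups overlapped, and its difference of -0.54 (SE 0.23, adjusted p = 0.0842 in edgeR) passed with the mouse as a block (-0.53, SE 0.07, adjusted p = 4.71e-06). *Icam1*, which encodes a β2 integrin ligand, fell by 0.71 at 1 h and 0.81 at 4 h, from 2878 to 3260 normalized counts in untreated BMDMs to 1787 to 1903 and 1586 to 1841. *Apbb1ip*, which encodes the talin recruiter RIAM, fell by 0.96 at 4 h (adjusted p = 2.35e-08 in edgeR). *Icam2* fell by 0.67 at 4 h, a call lost without the untreated library of mouse 3 or the 4 h library of mouse 2 or 4 (adjusted p up to 0.0626 in edgeR). *Rassf5*, which encodes the Rap effector RAPL, fell by 0.44 at 4 h, and its call at 1 h (-0.16) was lost under 12 of 20 alternatives, among them leaving out 9 of the 12 libraries in turn, all but the untreated library of mouse 4, the 1 h library of mouse 3 and the 4 h library of mouse 2.

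Of 13 genes that make or remove PIP3, the lipid that cytohesins bind, 1 was higher and 5 lower at 1 h (46.2% called, against 20.1% of all genes), and 3 higher and 9 lower at 4 h (92.3%, against 40.0%). *Inppl1*, which encodes the lipid phosphatase SHIP2, fell by 0.54 and 1.06 at 1 h and 4 h. *Pik3ap1*, the adaptor BCAP, fell by 0.94 at 4 h, from a mean of 12174 to 6363 normalized counts, and *Pik3cd*, a catalytic subunit of leukocytes, fell by 0.42 and 0.65. *Pik3r6*, a regulatory subunit, fell by 0.49 and *Pik3ca* by 0.27 at 1 h, while *Pik3cb* rose by 0.33 and was then lower at 4 h, where it fell by 0.49. *Pik3ca* fell by 0.50 at 4 h. *Pik3r3* had the largest rise, 1.34 at 4 h, on 2 to 25 counts per library. The median log2 fold change of the 13 genes was -0.22 at 1 h and -0.29 at 4 h, beside -0.00486 and 0.00420 over all tested genes.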
